A study of Homo sapiens with 6 samples.

Results

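The 10 genes described here encode serine/threonine kinases and pseudokinases that are regulated at the level of their transcripts: SNRK, the 3 PIM kinases, the 3 Tribbles pseudokinases, the polo-like kinases PLK2 and PLK3, and the serum- and glucocorticoid-regulated kinase SGK1. They were taken by symbol from the 45372 Ensembl gene IDs of the deposited tables, and all 10 were found. They were chosen from the same TPM differences between mimic and control cells that are given below, so the levels and differences of the 10 genes are a description and nothing is inferred from their direction. Human umbilical vein endothelial cells (HUVECs, primary cells of the vein wall, labelled wild type and passaged 3 times) were transfected with Lipofectamine 2000 and 50 nM of RNA, which was a miR-409-3p mimic in 3 libraries and a non-specific control in the other 3. RNA was taken at 48 h and sequenced as poly(A)-enriched libraries. Every title adds that the cells were non-treated, a word the labels leave undefined. The labels call the libraries of a group biological replicates, each made from 4 pooled technical replicates. They do not say whether the replicates came from separate cultures or donors, so any p-value measures only the spread between these libraries. There was no untransfected group.

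Most protein kinases wait as inactive protein for a signal. Most of the genes here belong to a smaller class that cells control by making or removing the transcript. PIM kinases are constitutively active and are induced by JAK-STAT signalling. Tribbles proteins have a kinase fold with little or no catalytic activity and act as scaffolds that bring the ubiquitin ligase COP1 to its substrates. PLK2 and PLK3 respond to serum and stress, SGK1 is induced by serum and glucocorticoids and then activated by mTORC2 and PDPK1, and SNRK belongs to the AMPK-related kinases that LKB1 activates.

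The mimic supplies the mature microRNA below, shown because its seed defines the target sites discussed with each gene (RefSeq, GRCh38.p14, chr14:101065346-101065367, plus strand; capitals mark the seed, bases 2 to 8).
miR-409-3p: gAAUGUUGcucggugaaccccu
A transcript pairs with this seed through CAACATT, written as DNA. That match of 7 bases is the 7mer, as is AACATTA. A match to AACATT alone is the 6mer, and CAACATTA is the 8mer.

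Of the 10 genes, SNRK, SGK1, TRIB1 and PIM1 were about 1.5 times higher in mimic cells, TRIB2 was slightly higher, PLK3 was 0.700 of its control level, PLK2 was slightly lower, and PIM2, PIM3 and TRIB3 overlapped between the groups. Levels are in TPM, which corrects read counts for gene length and scales every library to the same total. In bulk RNA, a change in the number of cells that express a gene and a change in RNA per cell cannot be told apart. In the fit across the 13680 genes that reached 1 TPM in 3 or more libraries (limma with Benjamini-Hochberg adjustment, threshold 0.05), 3 of the 10 passed, SNRK, PIM1 and TRIB1, all higher, where 0.431% of all tested genes passed in either direction and 0.132% were higher. The groups' values did not overlap for 7 of the 10, 5 higher and 2 lower, where 15.7% of all tested genes did not overlap, 5.16% higher and 10.5% lower. Since the list was chosen with this comparison known, nothing is read from these counts. SNRK was the only member past the threshold when control library 1, 2 or 3 or mimic library 1 was left out. In those fits the log2 fold change ran from 0.54 to 0.58 for PIM1 and from 0.53 to 0.60 for TRIB1. Over all tested genes, 14 to 18 passed in them, against 59 with all 6 libraries. The median log2 fold change of the 10 was 0.15, against -0.017 for all tested genes.

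**Figure D1:**
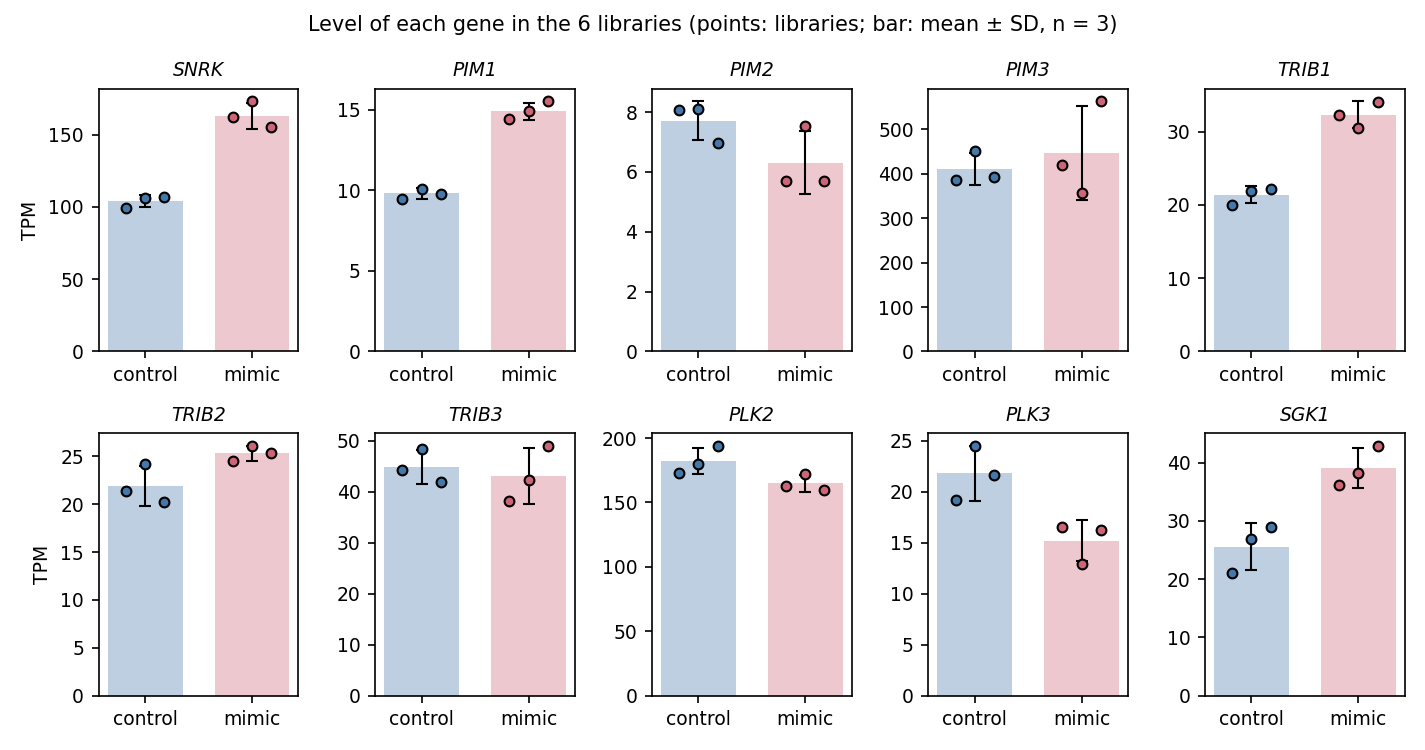
TPM of each of the 10 genes (vertical axes start at 0 and differ between genes) in control (blue) and mimic (red) libraries; points are libraries, bars the mean and error bars the SD, n = 3. SNRK, PIM1, TRIB1, TRIB2 and SGK1 have every mimic point above every control point, PLK2 and PLK3 have every mimic point below, and PIM2, PIM3 and TRIB3 overlap.

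SNRK, the AMPK-related kinase known for roles in vessel and heart cells, measured 99.2, 106 and 107 TPM in control libraries 1 to 3 and 162, 173 and 155 TPM in mimic libraries 1 to 3. Every mimic library lay above every control library, with a gap far wider than the spread inside either group. The means were 104 ± 4.19 and 163 ± 8.85 TPM (SD, n = 3), 1.57 times the control level, with a log2 fold change of 0.64 (SE 0.06, on log2(TPM + 1)). An estimated 5737 to 10704 reads per library lay behind these values, which puts the counting error at 1.32% or less. SNRK passed the threshold in all 15 other ways of fitting, where its log2 fold change ran from 0.60 to 0.68. Its limma adjusted p ran from 0.00149 to 0.0436 over them, so some of these passes were close to the threshold. SNRK (ENSG00000163788) is annotated in GRCh38 at chr3:43286512-43424764 (plus strand). It overlaps the antisense gene SNRK-AS1 and the protein-coding gene ANO10 on the opposite strand, and RN7SL517P on the same strand. SNRK-AS1 had 1.45, 2.06 and 2.14 TPM in control and 2.49, 3.10 and 2.85 TPM in mimic libraries, also without overlap, and ANO10 had 36.1 to 37.3 and 37.6 to 39.2 TPM. RN7SL517P was at 0 TPM in every control library and at 0, 0.738 and 0.434 TPM in mimic libraries 1 to 3. Strand use in the counting is not given in the sources used here, so reads of SNRK and of these genes may be shared.

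The longest annotated SNRK 3′ UTR, 2586 bases, holds a 7mer match to the miR-409-3p seed, starting at its base 1323, and a 6mer near its end. Shorter SNRK UTRs of 281 bases, also of a principal isoform, and of 196 bases hold no match. The site is shown because SNRK had the highest ratio of the 10 genes, and nothing is read from the presence of the site. The 30 bases around it in GRCh38, chr3:43349869-43349898 on the plus strand, with the seed match in capitals, are as follows.
SNRK site: gcagtgcttagCAACATTggtgatagcatg
The RefSeq promoter window of SNRK holds TGACGTCA, the full cAMP response element, 34 to 27 bases before the RefSeq start. The GENCODE 29 start of SNRK, given above, lies further upstream than the RefSeq start and falls inside this element. It is shown, in capitals, at chr3:43286495-43286524 (GRCh38.p14, plus strand), because SNRK was the member furthest above its control level.
SNRK promoter: cgccccagcgcTGACGTCAcagtgacgcgc
This element was found in 1 of 13 promoter windows of 9 members and in 1.85% of 35116 windows of the table. TRIB1 has no window there. The other motifs searched on both strands, each of them in 0 of the 13 windows, were TGANTCA (AP-1, 7.71% of all windows), TTCNNNGAA (STAT, 7.66%), the glucocorticoid receptor element (0.390%) and the CArG box of serum response factor (1.29%). Absence from a window of 300 bases says nothing of these factors.

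The PIM kinases differed among themselves. PIM1, which favours cell survival and growth, measured 9.48, 10.1 and 9.79 TPM in control and 14.4, 14.9 and 15.5 TPM in mimic libraries. The groups were far apart, and PIM1 had the smallest relative spread in the control group of the 10 genes (an SD of 3.30% of the mean). The means were 9.80 ± 0.324 and 14.9 ± 0.520 TPM (n = 3), a ratio of 1.52 and a log2 fold change of 0.56 (SE 0.07). These low levels rest on an estimated 234 to 393 reads per library, with a counting error of up to 6.54%. PIM1 (ENSG00000137193) is annotated at chr6:37170203-37175426 (plus strand). Its 3′ UTR of 1335 bases also holds a 7mer seed match, starting at its base 123, at chr6:37174203-37174232 (GRCh38, plus strand, match in capitals).
PIM1 site: tgatacaggaaCAACATTtacaactcattc

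PIM2 (ENSG00000102096, chrX:48913182-48919024, minus strand), which shares many substrates with PIM1, measured 8.08, 8.09 and 6.98 TPM in control and 5.70, 7.54 and 5.71 TPM in mimic libraries. Mimic library 2 lay among the controls, so the groups overlapped, and the log2 fold change was -0.26 (SE 0.12) from an estimated 119 to 185 reads per library. PIM3 (ENSG00000198355, chr22:49960513-49964080, plus strand) was the most abundant of the 10 genes. It measured 386, 451 and 394 TPM in control and 421, 357 and 563 TPM in mimic libraries, with the highest and the lowest of the 6 values both in the mimic group. Its log2 fold change of 0.10 (SE 0.15) turned to -0.08 when mimic library 3, the highest, was left out. PIM3 made up 95.9 ± 0.235% of the summed PIM TPM in control and 95.3 ± 1.15% in mimic cells (n = 3). PIM1 took 2.16% to 2.38% of it in control and 2.65% to 3.92% in mimic libraries. The sum itself was 428 ± 36.0 and 468 ± 105 TPM, so the higher PIM1 level was small beside the spread of PIM3.

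Among the Tribbles genes, TRIB1 (ENSG00000173334, chr8:125430321-125438405, plus strand), which with COP1 promotes the breakdown of C/EBP transcription factors, measured 20.0, 21.9 and 22.1 TPM in control and 32.3, 30.5 and 34.1 TPM in mimic libraries. The lowest mimic library was well above the highest control library. The means were 21.4 ± 1.17 and 32.3 ± 1.81 TPM (n = 3), a ratio of 1.51 and a log2 fold change of 0.57 (SE 0.07), from an estimated 686 to 1121 reads. TRIB2 (ENSG00000071575, chr2:12716889-12742734, plus strand), its close relative, measured 21.4, 24.2 and 20.2 TPM in control and 24.5, 26.1 and 25.3 TPM in mimic libraries. The groups were separate, but only 24.2 and 24.5 TPM lay on either side of the gap, and the log2 fold change was 0.20 (SE 0.08). TRIB3 (ENSG00000101255, chr20:362835-397559, plus strand), which binds AKT and is induced through ATF4 and CHOP under stress, measured 44.2, 48.3 and 41.8 TPM in control and 38.1, 42.3 and 49.0 TPM in mimic libraries. These values overlapped fully, with a log2 fold change of -0.06 (SE 0.09) that became 0.03 without mimic library 1.

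Shares within the family restate these levels and are no separate result. TRIB1 supplied 23.4%, 23.2% and 26.3% of the summed Tribbles TPM in control libraries and 34.0%, 30.8% and 31.5% in mimic libraries. TRIB3 supplied 51.6%, 51.1% and 49.7% in control and 40.2%, 42.8% and 45.2% in mimic libraries, while TRIB2 stayed between 23.3% and 26.4% in all 6. In TPM, TRIB3 overlapped between the groups (means of 44.8 and 43.1), so its lower share came mainly from the higher TRIB1 level in the sum. The Tribbles sum was 88.1 ± 5.60 TPM for the controls against 101 ± 6.91 TPM with mimic (n = 3). The 3′ UTR of TRIB1 held no seed match, nor did that of TRIB3, and that of TRIB2 held 3 copies of the 6mer alone.

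**Figure D2:**
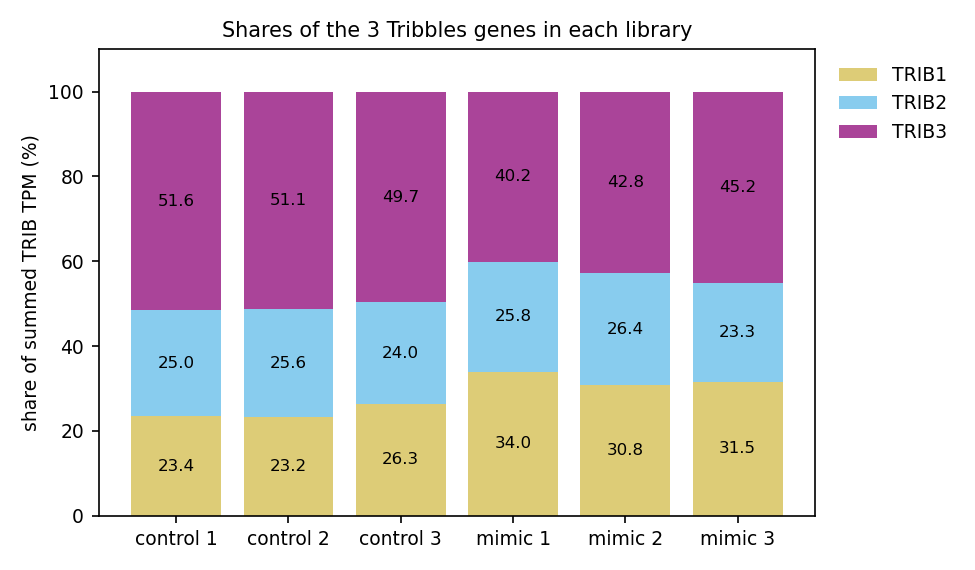
Share of the summed TPM of TRIB1, TRIB2 and TRIB3 (vertical axis, percent) held by each gene in each of the 6 libraries. TRIB1 takes 23.2% to 26.3% in control and 30.8% to 34.0% in mimic libraries, and the share of TRIB3 is lower in every mimic library.

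The polo-like kinases of this set were on the lower side. PLK2 (ENSG00000145632, chr5:58453982-58460260, minus strand), a p53 target that acts in centriole duplication, measured 173, 180 and 194 TPM in control and 163, 172 and 160 TPM in mimic libraries. The groups were separate by about 1 TPM, and the ratio of 0.905 corresponded to a log2 fold change of -0.14 (SE 0.06). PLK3 (ENSG00000173846, chr1:44800225-44805990, plus strand), a stress-response kinase, measured 19.2, 24.5 and 21.6 TPM in control and 16.5, 12.9 and 16.2 TPM in mimic libraries. Its groups did not overlap, although each varied by 12.3% and 13.1% of its mean, among the widest spreads of the 10 genes. The means were 21.8 ± 2.68 and 15.2 ± 2.00 TPM (n = 3), with a log2 fold change of -0.49 (SE 0.11) from an estimated 399 to 695 reads. PLK3 overlaps TCTEX1D4 on the other strand, which was at or below 0.322 TPM in all libraries. PLK3 supplied 9.96% to 12.0% of the summed PLK2 and PLK3 TPM in control and 6.98% to 9.24% in mimic libraries. Neither 3′ UTR held a seed match.

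SGK1, the kinase that phosphorylates FOXO3 and the ubiquitin ligase NEDD4L, measured 21.1, 26.9 and 28.9 TPM in control and 36.2, 38.3 and 42.9 TPM in mimic libraries. All mimic libraries were above all control libraries, and control library 1 was the lowest of its group. The means were 25.6 ± 4.02 and 39.1 ± 3.42 TPM (n = 3), a ratio of 1.53. The log2 fold change of 0.60 was close to that of TRIB1 and PIM1, but its standard error of 0.11 was wider, and SGK1 did not pass the threshold. It passed in 1 of 15 other settings, a filter of 5 TPM. The log2 fold change was 0.47 without control library 1. SGK1 (ENSG00000118515) is annotated at chr6:134169246-134318112 (minus strand). Its longest annotated 3′ UTR, 1963 bases, belongs to an isoform that ends upstream of the kinase exons and carries a pair of 7mer matches. The 1016-base UTR of the principal isoform carries no match. The table gives 1 value per gene, so the isoforms could not be told apart. The upstream sites are shown, on the minus strand in GRCh38, for comparison with those of SNRK and PIM1.
SGK1 site at chr6:134261704-134261733: taagttcacagCAACATTgagcagaaggta
SGK1 site at chr6:134261632-134261661: tactttgccatCAACATTccctagcagagt

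**Figure D3:**
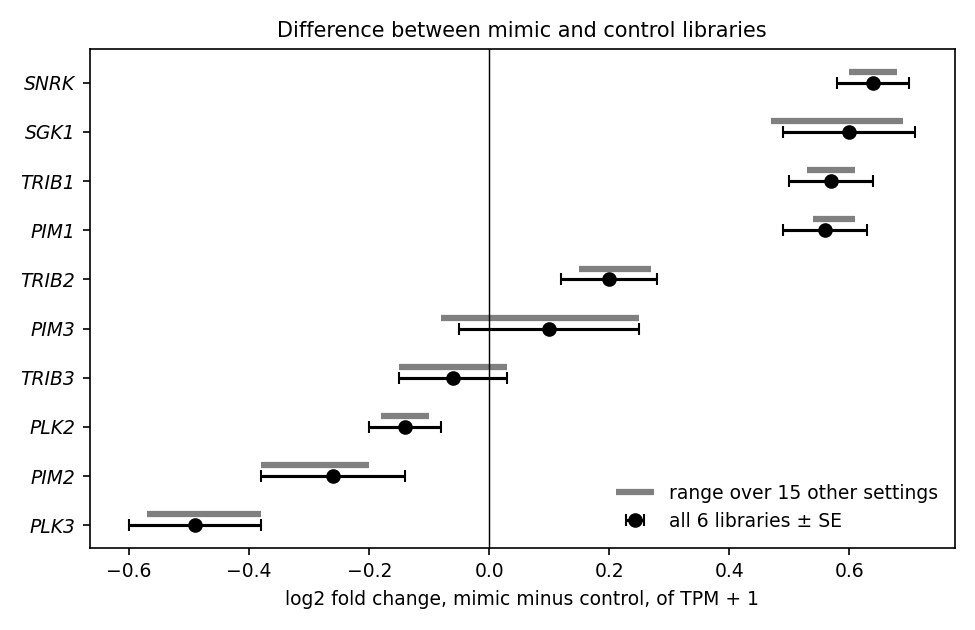
Log2 fold change, mimic minus control, of TPM + 1 (horizontal axis) for the 10 genes; points and bars give the estimate from all 6 libraries ± SE and grey bars the range over 15 other settings. SNRK, SGK1, TRIB1 and PIM1 stand together between 0.56 and 0.64, and PIM3 and TRIB3 have ranges that cross 0.

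Per unit of transcript length, the order of levels in control cells was PIM3 (411 TPM), PLK2 (182), SNRK (104), TRIB3 (44.8), SGK1 (25.6), TRIB2 (21.9), PLK3 (21.8), TRIB1 (21.4), PIM1 (9.80) and PIM2 (7.72). The ranges of SGK1, TRIB2, PLK3 and TRIB1 each overlapped the next, so the order among those 4 is not resolved. In mimic cells SNRK (163 TPM) overlapped PLK2 (165), SGK1 (39.1) overlapped TRIB3 (43.1) and PLK3 (15.2) overlapped PIM1 (14.9). TRIB1 (30.5 to 34.1 TPM), which in control cells overlapped SGK1, TRIB2 and PLK3, lay in mimic cells below SGK1 and above TRIB2 and PLK3. The most abundant, PIM3, exceeded 97.5% of tested genes in mean level and PIM2 exceeded 28.0%.

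The likeness of 2 genes was measured as the distance between their profiles over the 6 libraries, each profile being log2(TPM + 1) minus the gene's own mean, among 10551 tested genes with a mean of at least 5 TPM. The 5 genes closest to SNRK were NEDD9 (distance 0.14), a focal adhesion adaptor, PIM1 (0.19), MYLIP (0.20), a ubiquitin ligase for the LDL receptor, ZNF267 (0.21) and KLF11 (0.21). NEDD9 measured 26.4, 27.6 and 27.6 TPM in control and 40.2, 42.2 and 37.1 TPM in mimic libraries, with mimic library 3 the lowest of its group, as for SNRK. The closest genes to PIM1 were AMOTL2 (0.09) and TRIB1 (0.11), and those to TRIB1 were PIM1 (0.11) and AMOTL2 (0.15). AMOTL2, which encodes an angiomotin-like junction protein, measured 85.1, 92.5 and 88.4 TPM in control and 125, 126 and 127 TPM in mimic libraries. For SGK1 the nearest was ENSG00000275993 (0.22), named SIK1B in GENCODE 29, itself an inducible AMPK-related kinase gene, followed by SPRY4 (0.25). SIK1B measured 6.03, 8.45 and 7.42 TPM in control and 11.2, 10.7 and 13.1 TPM in mimic libraries. It is a near-identical copy of SIK1, which was listed at 0.435 to 1.71 and 1.00 to 2.41 TPM, and the division of reads between them is uncertain. TRIB2 lay nearest to NUAK1 (0.09) and KLF13 (0.10), PLK2 to ERCC6L (0.03) and DCAF1 (0.04), and PLK3 to ZNF48 (0.18) and MRM1 (0.21). The profiles were not scaled, so genes with similar log2 fold changes lie close together, such as PIM1 (0.56), TRIB1 (0.57) and AMOTL2 (0.50). Members were chosen by that difference, so such likeness adds nothing to it. The small distance of PLK2 and ERCC6L goes with a small log2 fold change in both (-0.14). These distances describe 6 libraries of a single experiment and carry no test.

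Sequence features that played no part in choosing the genes were compared with the 11855 tested protein-coding genes that have an annotated 3′ UTR. A 7mer or 8mer seed match was present in 3 of the 10 genes in the longest UTR, SNRK, PIM1 and SGK1, against 22.8% of genes. In the longest UTR of a principal isoform it was present in 2 of 10, against 20.7% of the 11745 genes that have such a UTR. In the longest UTRs, 6 of 10 members held no match of any kind. Since the members were chosen by their differences, the matches are not set against those differences. AUUUA pentamers (ATTTA as DNA) are the core of AU-rich elements that speed mRNA decay. In the longest UTRs they occurred in 9 of 10 members, against 74.1% of genes. There were 7 copies in SGK1, whose principal isoform has 5, 6 each in SNRK and TRIB2, and 5 in PIM1. PIM3 had 4, PLK3 had 3, PLK2 and PIM2 had 2 each, TRIB1 had 1 and TRIB3 had 0. The longer form TTATTTATT occurred in 4 of 10, with 3 copies in PIM1, 2 in PLK3 and 1 each in SNRK and PLK2, against 9.47% of genes. Copies that overlap were counted separately. In PIM1 the pentamers at bases 902, 906, 910 and 914 form a single stretch, which holds its 3 longer copies. Such counts rise with UTR length, which ran from 312 bases in PLK3 to 2586 in SNRK around a median of 1383 for all genes. For the same reason as with the seed matches, the AU-rich counts are not set against the differences of the members. Of the 10, 7 spanned less of the genome than the median tested protein-coding gene (32960 bases), from 3568 bases for PIM3.

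**Figure D4:**
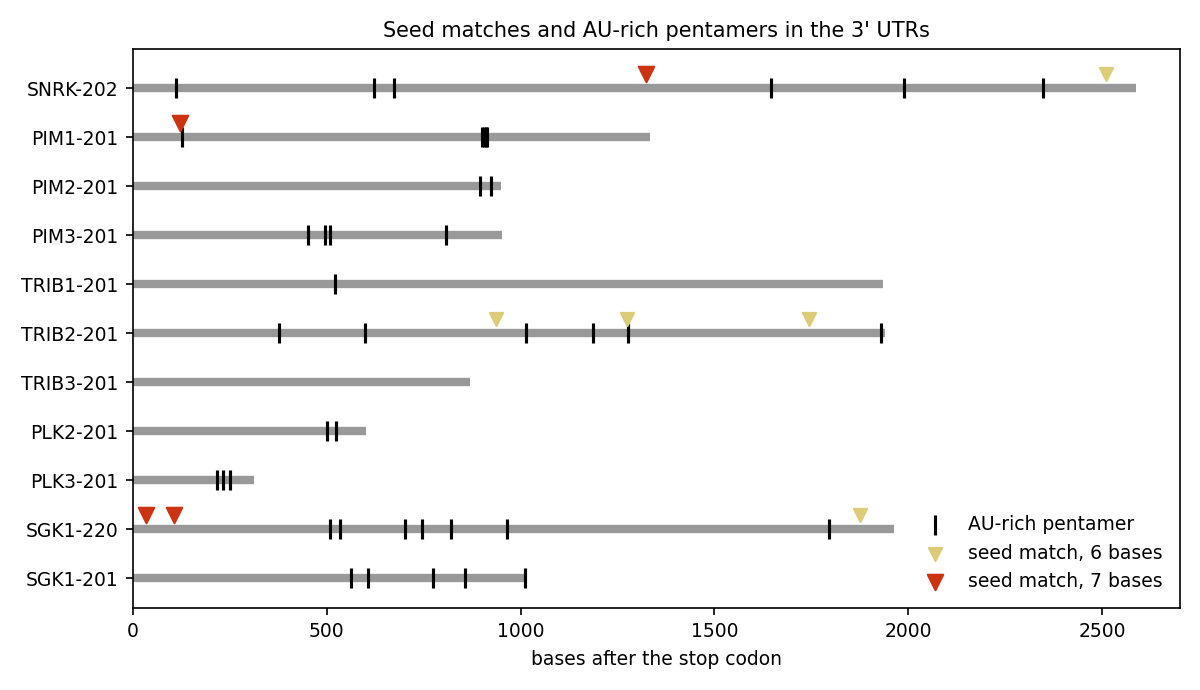
Map of the longest annotated 3′ UTR of each gene, and of the principal isoform of SGK1, by distance from the stop codon in bases; grey bars are UTRs, triangles seed matches and ticks AU-rich pentamers. Matches of 7 bases are found in SNRK, PIM1 and the upstream SGK1 isoform, and the PIM1 match starts at base 123.

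Genes that act with these kinases, glucocorticoid-induced genes and other inducible kinases were examined in 8 lists, 131 tested genes in all. Of these, 0 rose and 1 fell in the same fit, and 130 did not pass, where 0.431% of all tested genes passed in either direction. With so small a share, counts of 0 or 1 in lists of this size are near that of all genes. Nothing is read from them, here or list by list below. Without adjustment, p was below 0.05 for 13 that were higher and 11 that were lower, beside 3.05% and 7.64% of all tested genes. The medians of the lists ran from -0.04 to 0.04 in log2 fold change.

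Of 17 AMPK-related kinases and LKB1 components around SNRK, 0 passed, with a median of 0.01 (3 higher and 0 lower by unadjusted p). NUAK2 had the largest difference, from 1.57 to 2.45 TPM in control and 2.92 to 3.21 TPM in mimic libraries (a log2 difference of 0.43, SE 0.14, limma adjusted p = 0.302). For STK11, which encodes LKB1 itself, the log2 fold change was -0.02 (SE 0.07), and MELK, the most abundant at 107 to 119 TPM, differed by 0.01 (SE 0.05).

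For the PIM genes, 0 of 21 JAK-STAT components and PIM substrates passed, with a median of 0.01 (0 higher and 1 lower by unadjusted p). On the log2 scale STAT3 differed by 0.02 (SE 0.06) and SOCS3, a feedback gene of the same pathway, by 0.13 (SE 0.08). SOCS1 had the largest difference, -0.45 (SE 0.30), at 0.313 to 2.32 TPM. The substrate EIF4EBP1, the most abundant, measured 358 to 402 TPM in control and 329 to 426 TPM in mimic libraries.

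Around the Tribbles genes, 0 of 15 partners and substrates passed (1 higher and 2 lower by unadjusted p, median -0.01). SQSTM1, an autophagy receptor and the most abundant, differed by -0.01 on the log2 scale, COP1 by 0.02 (SE 0.07) and CEBPB, a C/EBP transcription factor, by -0.25 (SE 0.08, limma adjusted p = 0.313). FOXO1 measured 53.7, 54.7 and 59.5 TPM in control and 70.7, 73.9 and 70.1 TPM in mimic libraries (a log2 difference of 0.35, SE 0.06, limma adjusted p = 0.0525), just short of the threshold, and it passed in 4 of 15 other settings. Of 16 genes of the ATF4 and CHOP response that induces TRIB3, 0 passed, with a median of -0.01 (3 higher and 2 lower by unadjusted p). ATF4 itself, at 501 to 563 TPM, differed by 0.06 (SE 0.05) on the log2 scale, and DDIT3, which encodes CHOP, by -0.06 (SE 0.08). SESN2, a stress-induced regulator of mTORC1, had the largest difference in the list, -0.56 (SE 0.11, limma adjusted p = 0.0763). SESN2 passed in 3 of 15 other settings, among them the fit without mimic library 3 (-0.68, limma adjusted p = 0.0110), and its adjusted p ran from 0.0110 to 0.275 over them.

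Of 14 other polo-like kinase genes and partners, 0 passed, with a median of 0.00 (1 higher and 0 lower by unadjusted p). The mitotic PLK1 differed by -0.08 (SE 0.06) on the log2 scale and PLK4 by -0.11 (SE 0.08). RAPGEF2, a PLK2 substrate, had the largest difference, 0.18 (SE 0.07), and HIF1A, the most abundant, differed by 0.09. Of 18 activators, relatives and substrates of SGK1, 0 passed, with a median of 0.02 (2 higher and 1 lower by unadjusted p). FOXO1 again had the largest difference. The relative SGK3 differed by -0.06 (SE 0.08), the activator PDPK1 by -0.16 (SE 0.07), the substrates NEDD4L by 0.03 (SE 0.09) and FOXO3 by 0.24 (SE 0.08), and STUB1, the most abundant, by -0.04. Of 15 glucocorticoid-induced genes, 0 passed, with a median of 0.04 (4 higher and 2 lower by unadjusted p). FKBP5 and TSC22D3, widely used readouts of the glucocorticoid receptor, had 0.12 (SE 0.06) and 0.01 (SE 0.07). ANGPTL4 had the largest difference, -0.64 (SE 0.13, limma adjusted p = 0.0893).

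Of 22 other inducible kinases, 1 fell, 21 did not pass, and the median was -0.04 (1 higher and 4 lower by unadjusted p). The gene that fell was CLK4, a splicing-factor kinase, at 4.66, 4.68 and 5.60 TPM in control and 2.71, 2.80 and 2.57 TPM in mimic libraries (a log2 difference of -0.69, SE 0.11, limma adjusted p = 0.0436). It passed in 6 of 14 other settings, but in 0 of the 6 that left out a library, where its log2 fold change ran from -0.73 to -0.62. DAPK3, the most abundant of the list, differed by 0.04 (SE 0.09).

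**Figure D5:**
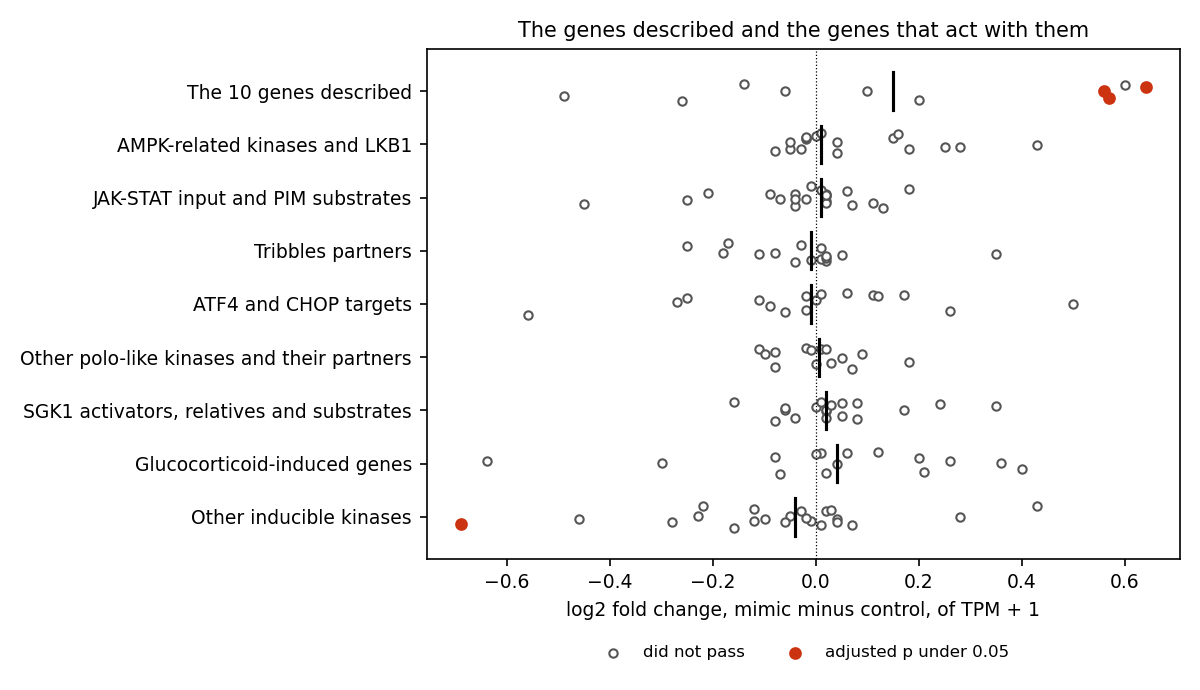
Log2 fold change, mimic minus control, of TPM + 1 (horizontal axis) for the 10 genes described and for the tested genes of the 8 lists; each point is a gene, filled points passed an adjusted p under 0.05 and black bars are medians. The list medians lie between -0.04 and 0.04, and CLK4 at -0.69 is the filled point among them.

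The cells carried the endothelial identity of their label. The 10 endothelial markers summed to 4390 to 4675 TPM in control and 4679 to 4721 TPM in mimic libraries, led by PECAM1. The sums were 9.60 to 13.3 and 10.4 to 12.0 TPM for 5 smooth muscle markers, 9.27 to 11.8 and 10.4 to 11.3 TPM for 5 fibroblast markers, 19.0 to 20.2 and 14.7 to 19.7 TPM for 5 epithelial markers, with KRT5 and KRT14 at 0, and at most 0.559 TPM for 5 leukocyte and for 5 blood and platelet markers. CD3E, MS4A1, PTPRC, HBA1, HBB and PPBP were at 0 in all libraries. The endothelial sums did not overlap but nearly met, at 4675 and 4679 TPM, and the blood and platelet sum, 0 in all control libraries, came from PF4 alone. Of the markers tested, 0 passed limma, and 0 had an unadjusted p below 0.05. Their part in the differences of the 10 genes was not tested. Between 29800000 and 35800000 assigned reads were estimated per library.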

How the data were processed

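The values are TPM, as the authors deposited them, in a separate file for every library that lists 45372 Ensembl IDs. The submitters' processing notes name the builds hg38 and GRCh38.p13. What aligned and counted the reads, with which annotation and strand setting, is not given in the sources used here. A table of Ensembl IDs gave symbols for 45102 of them, and positions and transcript sequences came from GENCODE 29 on GRCh38.

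Genes that reached 1 TPM in 3 or more of 6 libraries were fitted as log2(TPM + 1) in limma 3.58.1, run under R 4.3.3 (trended prior, group as the only term, Benjamini-Hochberg over 13680 genes, threshold 0.05). The pseudocount understates changes of low genes. Depth was estimated from low genes, whose values were whole multiples of a step within 0.02 steps in 87.2% of cases. Where a step was found and a length known, it matched 1 read over the GENCODE 29 exon length in 65.9% of genes. Reads per gene use GENCODE 29 exon lengths and are approximate, and reads carried no molecular identifiers, so errors from them cover counting alone.

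The members and lists were chosen with earlier results of these data known. Named genes were the members, and from each list up to 3 genes past the threshold, the most abundant and the most changed, plus the genes of nearest profile. Further genes were named with their values already seen. Some genes that the rule would name are not reported here. The planned comparison of protein sequences was not run. Same-numbered control and mimic libraries were checked for pairing, and their deviations correlated at 0.03, -0.09 and -0.11. In simulated data of 13680 genes, 200 were changed on the log2(TPM + 1) scale. Noise was normal and independent, with the variances of the fit above. The share recovered by limma was 32.8% for changes of 1.25-fold, 76.5% for 1.5-fold and 93.7% for 2-fold on that scale. Of its calls, 6.07% were false. For low genes such a change is a larger ratio in TPM, so these shares do not carry over to TPM ratios there. Python 3.11.15 was used for tables, sequence searches and plots.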

Additional observations from a re-analysis of the deposited data

How the results depend on the processing

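SNRK passed the threshold in all 15 other settings, PIM1 in 9 and TRIB1 in 8, and no member among SNRK, PIM1, TRIB1, SGK1, TRIB2, PIM2, PLK2 and PLK3 changed sign. Against 59 genes called over all genes (18 higher, 41 lower), 11 were called with no filter, 115 with a filter of 5 TPM, 20 with an untrended prior, 119 with a robust prior and 14 to 46 with 1 library left out. Quantile scaling gave 34 higher and 42 lower. Against 3 members, 1 was called with no filter and 1 to 3 with 1 library left out. Against 1 listed gene, 0 were called with no filter, 3 with a filter of 5 TPM, 2 with either median-of-ratios or quantile scaling, 3 with a robust prior and 0 to 1 with 1 library left out (the 1 was SESN2, without mimic library 3, and not CLK4). A replicate block gave 14 genes, 1 member and 0 listed genes. The labels do not say that a library number marks a shared batch. The low correlations between same-numbered libraries cannot exclude one. These sign changes were all of values that did not pass: PIM3 -0.08 without mimic library 3 (up to 0.25 without mimic library 2), TRIB3 0.03 without mimic library 1 (down to -0.15 without mimic library 3), MELK -0.04 and EIF4EBP1 0.04 without mimic library 2 (EIF4EBP1 -0.15 without mimic library 3), SQSTM1 0.01 with median-of-ratios scaling and 0.01 and 0.0009 without control libraries 2 and 3, STUB1 0.01 and 0.07 without control library 2 and mimic library 2 (-0.15 without mimic library 3), and DAPK3 -0.0030 and -0.06 without control library 3 and mimic library 3 (0.13 without mimic library 2). The use of the principal isoform for the UTRs was chosen after the data were seen. The cause of these shifts was not tested.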

Other observations

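Of the 131 listed genes tested, 15 were higher and 12 lower in mimic cells without overlap between the groups, where 5.16% and 10.5% of all tested genes were. Of these, 7 that did not pass are given here in both directions, chosen after their values were seen. On the higher side, ATF3, a stress-induced transcription factor, measured 3.29, 3.52 and 3.89 TPM in control and 4.90, 5.46 and 6.03 TPM in mimic libraries (a log2 difference of 0.50, SE 0.11). PPP1R15A, which encodes the phosphatase subunit GADD34, measured 107, 111 and 105 TPM in control and 132, 127 and 126 TPM in mimic libraries (0.26, SE 0.05). KLF9, a glucocorticoid-induced transcription factor, measured 42.1, 45.5 and 42.9 TPM in control and 55.3, 61.2 and 51.6 TPM in mimic libraries (0.36, SE 0.07). On the lower side, SESN2 measured 17.6, 19.5 and 18.3 TPM in control and 11.1, 11.1 and 14.6 TPM in mimic libraries (-0.56, SE 0.11). ANGPTL4, a secreted lipase inhibitor, measured 10.9, 11.4 and 9.75 TPM in control and 7.10, 5.09 and 7.54 TPM in mimic libraries (-0.64, SE 0.13). MT2A, a metallothionein, measured 2640, 2223 and 2272 TPM in control and 2118, 1573 and 2148 TPM in mimic libraries (-0.30). CLK1, the relative of CLK4, measured 28.6, 29.7 and 33.5 TPM in control and 23.0, 25.1 and 18.3 TPM in mimic libraries (-0.46, SE 0.11).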
